A study of Mus musculus with 30 samples.

Results

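Control ventricles at postnatal day 14 (P14) were compared with control ventricles at postnatal day 7 (P7), an interval that spans the second week after birth. The members were chosen by the sample titles alone and are 6 of the 30 arrays of the series, 3 at P14 and 3 at P7. Both groups carried the MCK-Cre transgene, in which the muscle creatine kinase promoter, active in skeletal muscle and heart, drives the Cre recombinase, and their labels name no floxed allele. The mice were of an FVB/B6 hybrid strain and, by the methods of the study, male. Sox6 KO ventricles (Sox6loxp/loxp; MCK-Cre), which lose the transcription factor Sox6 in the same muscle cells, were measured at P14 and P7 with 3 arrays each and are used below to see whether the same change was found in other animals. The labels call the 3 samples of a group biological replicates and do not say whether animals were pooled or shared a litter. The methods likewise state that 3 biological replicates were made at each age, but also that each biological replicate was hybridised in triplicate. Whether the 3 arrays are separate animals or repeat hybridisations of 1 sample is thus not settled, and p-values measure the spread between these arrays, which may be technical.

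In the mouse the second postnatal week follows the last common rounds of heart muscle cell division, after which the heart grows mostly by enlargement of its cells. Fatty acids become the main fuel of the ventricle while the pups suckle fat-rich milk, and mitochondria and contractile filaments fill the cells. Fetal forms of cytoskeletal, contractile and growth factor genes are replaced by adult forms over the same weeks.

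A mouse whole-genome bead array with 1 colour was used, on which the signal of a probe is given here as its log2 intensity after quantile normalization over the 30 arrays. A probe was tested when it lay above background on all 3 arrays of at least 1 group, which left 17997 probes, of which 6619 carry a gene name (6459 genes). Between 16300 and 16364 probes were detected on a P14 array and between 17559 and 17724 on a P7 array (exact permutation test, two-sided, p = 0.1, the smallest that 3 against 3 arrays allow). The correlation of log2 signals was 0.995 to 0.996 within a group and 0.981 to 0.986 between the groups. All 16 measured markers of ventricular heart muscle were detected on all 6 arrays. Their summed signal was 410563 to 428696 at P14 and 369697 to 411241 at P7. Members at the top of the signal range, such as *Myl3* (mean 15.63 at P14 and 15.47 at P7), weigh most in this sum. Quantile normalization gives every array the same set of values, so such signals have little room to rise. The sum therefore says little about marker content. Of 8 atrial markers 7 were also detected on all 6 arrays, so detection of these markers does not test the ventricular label. Because whole ventricle was used, fewer cells of a type and less RNA per cell cannot be told apart.

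Of the 17997 probes, 590 (3.28%) differed between P14 and P7 at a limma adjusted p under 0.01 and at least 1.5-fold, of which 278 (1.54%) were higher at P14 and 312 (1.73%) were lower. The changes were moderate in size, and 40 probes rose and 47 fell by at least 2-fold. On each of the 590 probes the 3 P14 arrays lay wholly above or wholly below the 3 P7 arrays, as did 21.5% (above) and 20.2% (below) of all probes tested. When the arrays were scaled to a common median in place of quantile normalization, 221 probes were higher and 484 lower, so the near balance of rises and falls depends on the normalization. Gene names were available for 190 of the probes that rose and 192 of those that fell.

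**Figure D1:**
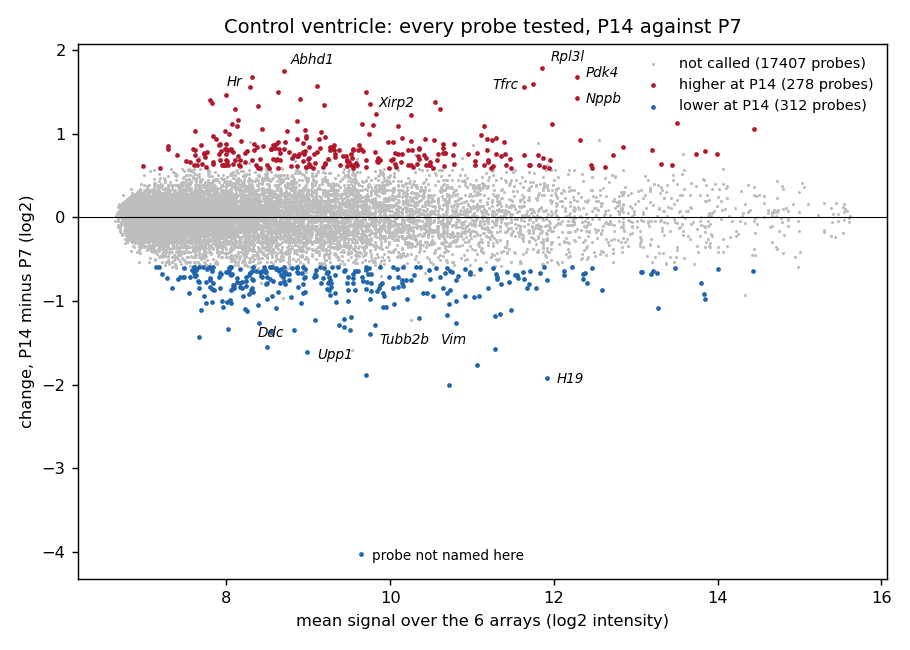
Each point is a probe tested in control ventricle, with its mean log2 intensity over the 6 arrays on the x axis and its log2 change, P14 minus P7, on the y axis. The 278 probes called higher are red and the 312 called lower are blue, and a single probe not named here lies far below the rest at -4.03.

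The gene with the largest rise was *Rpl3l*, which encodes a ribosomal protein used in place of Rpl3 in striated muscle. Its log2 signal was 12.71, 12.81 and 12.72 on the P14 arrays, against 10.89, 10.95 and 11.05 on the P7 arrays. The groups were far apart, and the change was 1.78 ± 0.10 (log2, SE, 3.44-fold, limma adjusted p = 2.70e-12). Next came *Abhd1*, a member of the alpha/beta hydrolase family (1.75 ± 0.23, adjusted p = 3.70e-06), and *Pdk4*, the kinase that switches off pyruvate dehydrogenase and so spares glucose. *Pdk4* had 13.31, 13.39 and 12.65 at P14, against 11.27, 11.25 and 11.81 at P7. The third P14 array was the lowest of its group and the third P7 array the highest of its own, and the change was still 1.67 ± 0.36 (adjusted p = 1.23e-03).

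*Tfrc*, the transferrin receptor that brings iron into cells, had 12.39, 12.60 and 12.61 at P14, against 10.95, 10.79 and 11.08 at P7. All P14 values were higher, by 1.59 ± 0.17 (3.01-fold, adjusted p = 1.98e-07), and another probe of the gene rose by 1.56. *Tuba4a*, an alpha tubulin of differentiated cells, rose by 1.5 ± 0.11 (adjusted p = 3.12e-10), and *Hr*, which encodes the nuclear corepressor hairless, a target of thyroid hormone in brain, rose by 1.56 ± 0.14 (adjusted p = 1.39e-08). Among the other genes with the largest rises were *Cebpb* (1.41), a transcription factor of metabolic and stress responses, *Art3* (1.29), an ADP-ribosyltransferase family member of muscle and testis, *Dgat2* (1.22), which makes triglyceride, and *Chrm2* (1.16), the muscarinic receptor through which the vagus slows the heart. The ring finger gene *Sh3rf2* rose by 1.67 ± 0.16 (adjusted p = 1.79e-08). In Sox6 KO ventricles *Sh3rf2* rose by only 0.53, and the changes differed (-1.14, limma interaction, adjusted p = 6.06e-03). *Abhd1*, *Sh3rf2* and *Fos* are named through a list that the study chose as changed in the Sox6 KO on these arrays.

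The largest fall of a named gene was that of *H19*, an imprinted long noncoding RNA of fetal and neonatal tissues. Its log2 signal was 11.04, 10.92 and 10.94 at P14, against 12.80, 12.96 and 12.89 at P7. All P14 arrays were lower, by a log2 change of -1.92 ± 0.12 (3.77-fold, adjusted p = 1.56e-11), and another *H19* probe had -1.76. *Upp1*, which splits uridine, had 8.19, 8.25 and 8.13 at P14, against 9.92, 9.76 and 9.73 at P7. The groups did not overlap and the change was -1.61 ± 0.13 (adjusted p = 1.50e-09). *Tubb2b*, a beta tubulin of developing tissues, changed by -1.39 ± 0.12 (adjusted p = 6.81e-09) on 1 probe, while 2 other probes gave -0.42 (adjusted p = 7.93e-04) and -0.29 (adjusted p = 0.117).

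Growth-related and mesenchymal genes made up much of the rest. *Ptn*, the heparin-binding growth factor pleiotrophin, fell to 9.20, 9.21 and 9.09 at P14, against 10.50, 10.62 and 10.25 at P7, a change of -1.29 ± 0.12 (adjusted p = 8.58e-09). *Vim*, the intermediate filament of fibroblasts, endothelium and other mesenchymal cells, fell to 10.09, 10.15 and 10.28 at P14, against 11.39, 11.53 and 11.37 at P7 (-1.26 ± 0.16, adjusted p = 1.45e-06). On neither gene did the groups overlap. *Col18a1*, a collagen of vascular basement membranes (-1.17 ± 0.09, adjusted p = 1.01e-09), *Spon2*, a secreted matrix protein (-1.18), *Maged2* (-1.11) and *Ddc*, aromatic amino acid decarboxylase and in mouse an imprinted gene of the heart (-1.35), were also lower at P14. *Sun3* (-1.34), the histone gene *H2ac12* (-1.19) and *Kcne1* (-1.16), the beta subunit of the slow delayed potassium current, carry names only through the list of Sox6 KO genes, as does *Ddc*. *Ptgds*, prostaglandin D synthase, changed by -1.26 ± 0.34 with an adjusted p of 8.70e-03, and its adjusted p was between 0.0176 and 0.0402 when any 1 of the 6 arrays was left out. Probes for histones, globins and tubulins can bind transcripts of close family members, so the values of *H2ac12*, *Hbb-b1*, *Tubb2b* and *Tuba4a* may include relatives.

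**Figure D2:**
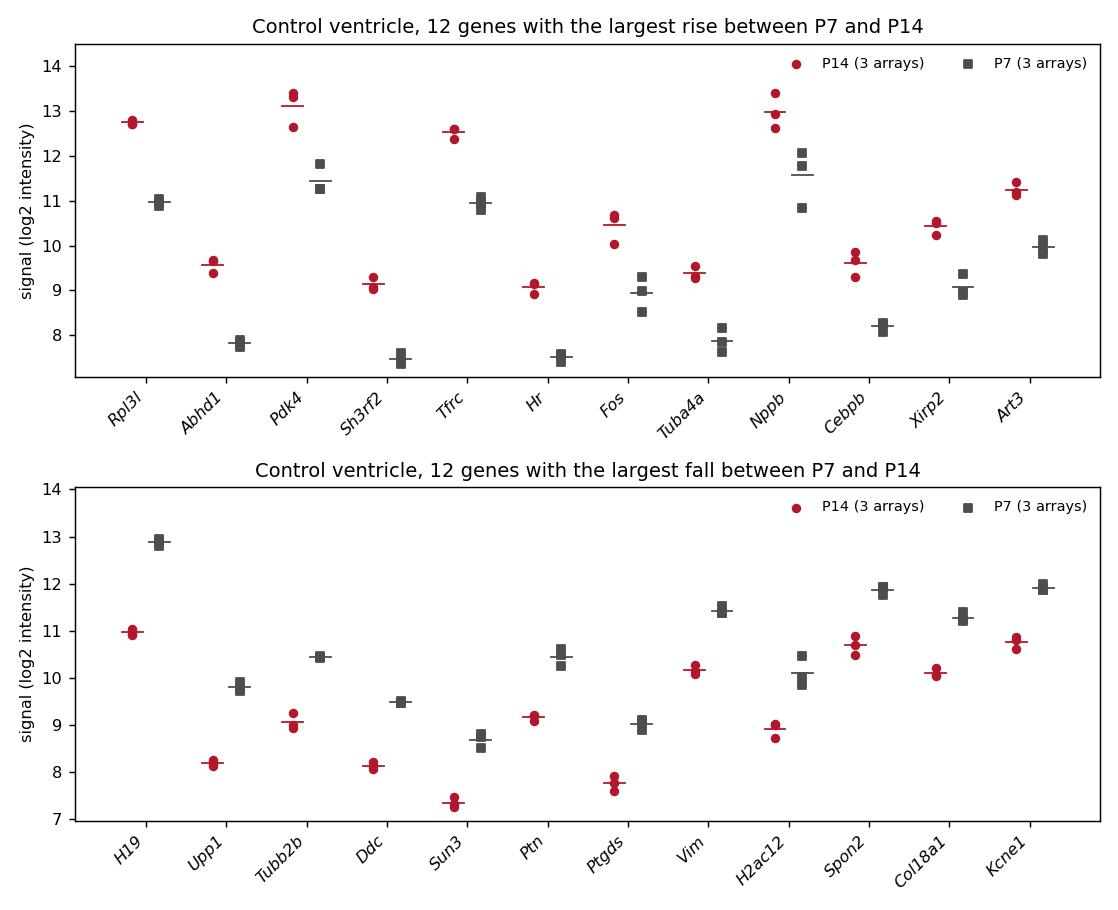
Log2 intensity on each array of the 12 named genes with the largest rise (upper panel) and the 12 with the largest fall (lower panel), with P14 as red circles to the left of P7 as grey squares and the mean of 3 arrays as a bar. No P14 array overlaps a P7 array for any of these genes, by the rule that chose them, and *Pdk4*, *Nppb* and *Fos* show the widest scatter among the risers.

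The largest change on the array belonged to a probe that is not named here. It had 7.62, 7.40 and 7.85 at P14, against 11.64, 11.71 and 11.62 at P7, a change of -4.03 ± 0.10 (16.4-fold, adjusted p = 6.04e-21). Its mean control signal was 12.48 (P1), 11.66 (P7), 7.62 (P14), 6.69 (P30) and 6.83 (P60), and the step between P7 and P14 was the largest of these. In Sox6 KO ventricles the same probe changed by -4.25.

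The genes of cell division were lower at P14. Of 25 measured genes of mitosis and cytokinesis, 23 were lower and 1 was higher at an adjusted p under 0.05. Among all probes tested, 9.91% were lower and 9.53% higher. The median change was -0.70, against 0.006 for all probes. The gene lists hold named genes only, whereas most probes tested carry no name. At an adjusted p under 0.01 and 1.5-fold, 382 of 6619 named probes were called, against 208 of 11378 unnamed ones. The shares of all probes, here and below, are therefore likely a low yardstick for lists of named genes. *Cdk1*, the kinase that drives entry into mitosis, had 7.84, 7.94 and 7.83 at P14, against 8.73, 8.82 and 8.68 at P7 (-0.87 ± 0.08, adjusted p = 1.39e-08). The P14 arrays lay together below every P7 array. *Cdkn3*, a phosphatase of cyclin-dependent kinases, changed by -1.0 ± 0.11 (adjusted p = 1.98e-07), *Mad2l1*, a spindle checkpoint protein, by -0.94 ± 0.10 (adjusted p = 9.93e-08), *Prc1*, which bundles the central spindle, by -0.93 ± 0.11 (adjusted p = 1.12e-06), and *Cdc20*, the activator of the anaphase-promoting complex, by -0.85 (-0.58 and -0.25 on other probes, the last with an adjusted p of 0.148). *Bub3*, a checkpoint protein that also has other nuclear roles, was the member that rose (0.21 ± 0.07, adjusted p = 0.0295). Names of 17 of the 25 come only from the study's list of Sox6 KO genes, so their count is not independent of that selection, and of the 8 others 6 were lower and 1 higher.

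The promoters of 4 genes are shown because the division genes moved together and because *Xirp2* was among the largest rises. The sequences are those RefSeq gives for build GRCm38.p6, 250 bases before to 50 after the annotated start, read 5′ to 3′ on the strand of the gene. Capitals in the 3 division genes mark the letters TTTGAA, the core of the cell cycle genes homology region, and CCAAT, on either strand, and in *Xirp2* they mark a match to the MEF2 site. The windows are chr10:69352863-69353162 on the minus strand for *Cdk1*, chr7:80294201-80294500 on the plus strand for *Prc1*, chr14:46760291-46760590 on the plus strand for *Cdkn3* and chr2:67445752-67446051 on the plus strand for *Xirp2*.
Cdk1: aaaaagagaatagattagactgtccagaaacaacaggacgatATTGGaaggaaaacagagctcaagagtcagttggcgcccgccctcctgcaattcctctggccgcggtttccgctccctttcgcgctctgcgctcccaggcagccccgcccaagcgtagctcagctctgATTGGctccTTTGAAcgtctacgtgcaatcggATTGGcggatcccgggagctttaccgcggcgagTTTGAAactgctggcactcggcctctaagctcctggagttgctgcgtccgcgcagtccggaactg
Prc1: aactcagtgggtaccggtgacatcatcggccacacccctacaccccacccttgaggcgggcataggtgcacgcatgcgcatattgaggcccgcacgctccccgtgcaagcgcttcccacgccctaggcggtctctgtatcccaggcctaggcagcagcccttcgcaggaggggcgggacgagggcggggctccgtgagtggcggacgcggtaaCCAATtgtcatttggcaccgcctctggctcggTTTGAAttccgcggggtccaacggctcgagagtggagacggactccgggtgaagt
Cdkn3: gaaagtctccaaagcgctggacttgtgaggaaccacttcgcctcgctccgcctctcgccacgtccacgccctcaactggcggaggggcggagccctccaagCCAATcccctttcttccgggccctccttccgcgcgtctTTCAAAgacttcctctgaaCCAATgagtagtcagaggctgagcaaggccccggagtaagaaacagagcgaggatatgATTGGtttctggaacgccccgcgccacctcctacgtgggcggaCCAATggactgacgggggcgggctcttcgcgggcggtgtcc
Xirp2: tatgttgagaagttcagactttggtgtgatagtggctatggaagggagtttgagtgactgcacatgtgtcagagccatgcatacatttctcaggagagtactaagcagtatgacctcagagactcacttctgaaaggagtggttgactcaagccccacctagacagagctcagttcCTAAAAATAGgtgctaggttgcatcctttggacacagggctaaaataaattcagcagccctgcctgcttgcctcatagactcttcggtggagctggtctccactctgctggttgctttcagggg
The cell cycle genes homology region is known as the site through which the DREAM complex represses genes of mitosis, and CCAAT boxes bind the factor NF-Y. Of the 24 mitosis genes with a window in the table, 18 (75.0%) held TTTGAA on either strand, against 20.2% of all 27025 genes, and 18 (75.0%) held CCAAT, against 41.1% of all genes. Of 18 genes of DNA replication, 3 (16.7%) held TTTGAA and 10 (55.6%) held CCAAT. Among named genes with a window, 20.4% of those called lower and 15.7% of those called higher held TTTGAA. The share among genes called lower was thus that of all genes. For CCAAT the shares were 53.9% (lower) and 47.1% (higher). Further motifs were scanned and are not all reported here. *Bub3*, which rose, held TTTGAA as well, and *Mad2l1* and *Birc5*, which fell, did not in these windows. A gene counted when any of its windows held the letters, and a match is a description of the sequence only.

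DNA replication genes followed with smaller changes. Of 21 measured members, 13 were lower and 2 higher, with a median of -0.39, and of the 18 named independently of the Sox6 KO list 10 were lower. *Rfc4*, a subunit of the clamp loader, had 7.70, 7.73 and 7.41 at P14, against 8.41, 8.59 and 8.46 at P7 (-0.87 ± 0.11, adjusted p = 2.85e-06). *Mcm5*, a subunit of the replicative helicase, changed by -0.80 ± 0.13 (adjusted p = 3.50e-05), and *Dnmt1*, the maintenance DNA methyltransferase, by -0.58. Both members that rose, *Ung* (0.33 ± 0.08, adjusted p = 3.53e-03) and *Dut* (0.18, adjusted p = 0.0388), keep uracil out of DNA.

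Imprinted genes, many of which promote fetal growth, had the lowest median after the mitosis list. Of 15 measured, 11 were lower and 1 was higher at P14, and the median change was -0.56. *Dlk1* and *Ddc* are named only through the list of Sox6 KO genes, and 9 of the 13 others were lower. *Igf2*, the fetal insulin-like growth factor, had 13.28, 13.32 and 13.47 at P14, against 14.23, 14.28 and 14.50 at P7 (-0.98 ± 0.12, adjusted p = 1.38e-06). *Dlk1*, a Notch-related inhibitor of differentiation, changed by -1.07 ± 0.09 (adjusted p = 5.05e-09), *Ndn*, necdin, by -0.84 ± 0.07 (adjusted p = 8.44e-09), *Grb10*, which restrains insulin signalling, by -0.69, *Meg3*, a noncoding RNA, by -0.56, and *Gnas* by -0.56. The fall thus took in genes that promote growth and genes that restrain it (*Grb10*, *Igf2r* at -0.53 and *Cdkn1c* at -0.33). *Blcap* was the member that rose (0.43 ± 0.10, adjusted p = 2.47e-03).

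Growth factors and their receptors moved both ways, with 7 of 41 higher, 9 lower and a median of 0.11. *Mdk*, the heparin-binding relative of *Ptn*, changed by -0.90 ± 0.09 (adjusted p = 5.73e-08), *Pdgfa* by -0.91, *Igfbp5* by -0.74 and *Igf1* by -0.56. *Hbegf*, a ligand of the EGF receptor family, rose by 0.80 ± 0.09 (adjusted p = 3.62e-07), *Il15*, a cytokine made by muscle, by 0.68 (0.20 on another probe, adjusted p = 0.243), *Edn1*, endothelin, by 0.66 and *Bmp4* by 0.40.

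The nonmuscle cytoskeleton also fell. Of 52 measured actin genes and actin-binding partners, 22 fell and 3 rose, with a median of -0.22. *Cnn3*, a calponin of nonmuscle cells, had 8.42, 8.26 and 8.54 at P14, against 9.39, 9.46 and 9.42 at P7 (-1.02 ± 0.15, adjusted p = 1.34e-05). *Marcksl1* changed by -0.92, the thymosin *Tmsb10* by -0.87, *Arpc1b* of the Arp2/3 complex by -0.81 and the nonmuscle alpha-actinin *Actn1* by -0.60. The 3 members that rose were *Myl12a* (0.80), *Flnc*, the filamin of muscle (0.42), and *Rac1* (0.36). Among 22 tubulins and microtubule proteins, 5 were higher and 8 lower, and the isotypes differed in direction. *Tuba4a* (1.5), *Tubb4b* (0.80 ± 0.13, adjusted p = 7.13e-05) and *Tuba8* (0.54) rose while *Tubb2b* (-1.39), *Tubb5* (-0.68), *Tuba1c* (-0.60) and the tubulin-binding protein *Stmn1* (-0.76 ± 0.09, adjusted p = 1.43e-06) fell.

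Cytosolic ribosomal protein genes and splicing genes had more falls than rises, although about as many or more did not pass the test. Of 57 measured cytosolic ribosomal protein genes, 27 were lower and 1, *Rpl3l*, was higher, with a median of -0.17. *Rps23* changed by -0.95 ± 0.10 (adjusted p = 1.31e-07), *Rps18* by -0.67, *Rpl11* by -0.66 ± 0.10 (adjusted p = 1.64e-05) and *Rps21* by -0.56. Ribosomal protein genes have many processed pseudogenes, and a probe may bind their transcripts. Of 57 splicing genes, 12 were lower and 3 higher with a median of -0.12, and with median scaling 22 were lower. *Srsf5* (-0.63 ± 0.09, adjusted p = 1.77e-05) and *Tra2b* (-0.60) were the strongest falls, and *Mbnl1*, a regulator of the fetal-to-adult splicing switch, rose by 0.44 ± 0.08 (adjusted p = 4.47e-04).

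**Figure D3:**
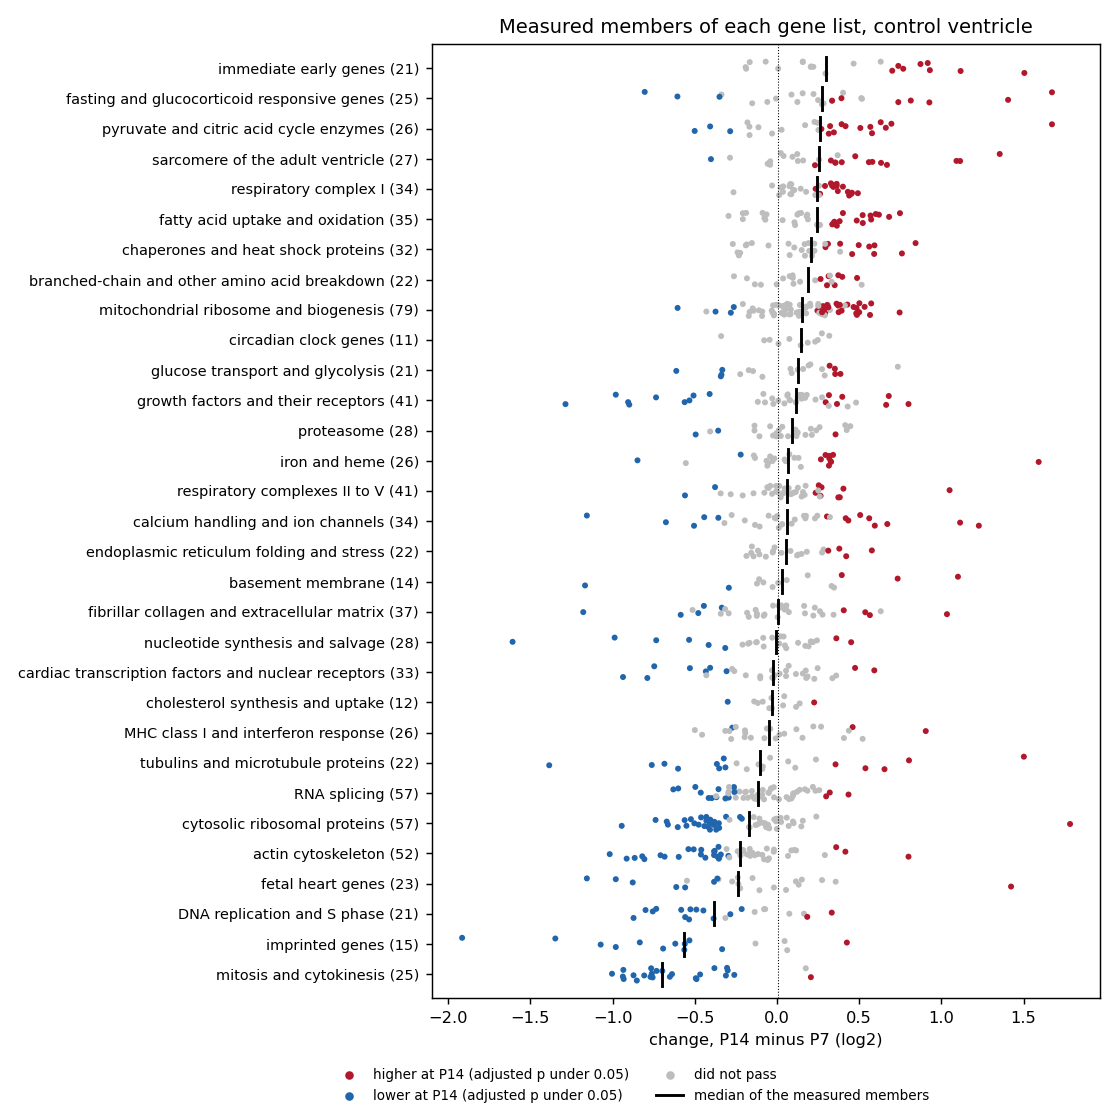
Log2 change, P14 minus P7, of every measured member of 31 gene lists, ordered by the list median (black bar), with the number measured in parentheses and the median of all probes as a dotted line. Members at an adjusted p under 0.05 are red where higher and blue where lower. Mitosis, imprinted and replication genes lie lowest, at medians of -0.70, -0.56 and -0.39, and the fatty acid, complex I, citric acid cycle and sarcomere lists lie at 0.24 to 0.26.

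Genes of mitochondrial energy supply rose, most of them by less than 1.5-fold. Of 35 measured genes of fatty acid uptake and oxidation, 15 were higher and 0 lower (limma; 16 and 1 at an unadjusted p under 0.05), with a median of 0.24. With median scaling the counts were 10 higher and 2 lower. *Decr1*, which removes double bonds during oxidation, had 9.59, 9.81 and 9.68 at P14, against 8.91, 8.80 and 9.12 at P7 (0.75 ± 0.20, adjusted p = 8.99e-03). *Pnpla2*, the lipase that releases fatty acids from droplets, rose by 0.68 ± 0.12 (adjusted p = 1.92e-04), its droplet partner *Plin5* by 0.60, the carnitine carrier *Slc25a20* by 0.57, the transferase *Cpt2* by 0.52 ± 0.11 (adjusted p = 1.00e-03, with 0.19 and an adjusted p of 0.383 on another probe) and the flavoprotein subunits *Etfb* and *Etfa* by 0.52 and 0.34.

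Of 26 enzymes of pyruvate use and the citric acid cycle, 13 were higher and 3 lower, with a median of 0.26. The counts were 9 and 4 with median scaling, and the median was 0.15. Enzymes that feed and turn the cycle were among the risers. *Dlat*, a subunit of pyruvate dehydrogenase, had 9.83, 9.81 and 9.86 at P14, against 9.24, 9.08 and 9.19 at P7 (0.66 ± 0.07, adjusted p = 3.12e-07). *Suclg1* rose by 0.57 ± 0.08 (adjusted p = 6.98e-06), *Ogdh* by 0.63 and the citrate synthase gene *Cs* by 0.51. The kinases that block pyruvate dehydrogenase differed, with *Pdk4* (1.67) and *Pdk2* (0.70 ± 0.14, adjusted p = 5.59e-04) higher and *Pdk1* (-0.50 ± 0.10, adjusted p = 3.61e-04) lower. *Mdh2* (-0.41) and *Idh2* (-0.28) were the other members that fell.

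Genes of respiratory complex I that rose did so by small steps, and 18 did not pass the test. The median was 0.12 with median scaling, where 14 were higher and 0 lower. Of 34 measured subunit and assembly genes, 16 were higher and 0 lower (limma; 19 and 0 at an unadjusted p under 0.05), and 32 had a positive change, with a median of 0.25. *Ndufa11* had the largest rise, with 13.02, 13.06 and 12.90 at P14, against 12.58, 12.35 and 12.57 at P7 (0.49 ± 0.09, adjusted p = 3.45e-04). *Ndufa5* (0.46), *Ndufa3* (0.45) and *Ndufs7* (0.44) followed. Complexes II to V gave a more mixed picture, with 8 of 41 higher, 2 lower and a median of 0.06, which was -0.03 with median scaling, where 5 were higher and 6 lower. *Cox7a1*, the muscle form of a cytochrome oxidase subunit, stood out with 15.03, 14.91 and 14.95 at P14, against 13.77, 14.01 and 13.97 at P7 (1.05 ± 0.09, adjusted p = 2.36e-09). *Atpif1*, an inhibitor of the ATP synthase (-0.56), and *Cox6c* (-0.38) fell.

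Of 79 genes of mitochondrial translation and biogenesis, 25 were higher and 4 lower, with a median of 0.15, in contrast with the cytosolic ribosome. With median scaling 15 were higher and 7 lower. *Mrps25* of the small mitochondrial ribosomal subunit rose by 0.75 ± 0.09 (adjusted p = 1.73e-06), *Mrpl30* by 0.57, the elongation factor *Tufm* by 0.57 and the fusion protein *Mfn2* by 0.49, while *Mrpl52* changed by -0.61. Of 22 genes of amino acid breakdown 7 were higher and 0 lower (limma; 10 and 2 at an unadjusted p under 0.05), among them *Prodh* (0.49 ± 0.10, adjusted p = 8.32e-04) and *Bckdha* (0.37), and without the second P7 array 4 were higher. The glucose list was split, with 4 of 21 higher and 4 lower. The insulin-regulated transporter *Slc2a4* rose by 0.35 ± 0.08 (adjusted p = 2.32e-03), *Pygm* by 0.32, *Pfkp* by 0.39 and *Hk2* by 0.35, and the fetal transporter *Slc2a1* (-0.61 ± 0.19, adjusted p = 0.0243), *Aldoa* (-0.33), *Pfkl* (-0.34) and *Pgam2* (-0.34) fell. Except for *Slc2a4*, the adjusted p of these members was 0.0145 to 0.0469. With median scaling 1 was higher and 6 lower, and without 1 array 1 to 4 were higher and 0 to 3 lower.

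The sarcomere list rose with the mitochondrial ones. Of 27 measured genes of the adult sarcomere and its Z-disc, 13 were higher and 1 lower at P14, with a median of 0.26, although without the second P7 array 8 were higher. The counts were 10 and 2 with median scaling, and the median was 0.22. *Xirp2*, an actin-binding protein of the intercalated disc, had 10.56, 10.50 and 10.24 at P14, against 8.97, 8.89 and 9.36 at P7 (1.35 ± 0.12, adjusted p = 8.43e-09). *Tcap*, which anchors titin at the Z-disc, had 12.60, 12.41 and 12.59 at P14, against 11.30, 11.47 and 11.48 at P7 (1.11 ± 0.16, adjusted p = 1.43e-05). On both genes all P14 arrays were above all P7 arrays. *Cmya5*, myospryn, rose by 1.09 ± 0.10 (adjusted p = 7.55e-09), *Ldb3* by 0.67, titin (*Ttn*) by 0.63 (-0.01 on another probe, of low signal) and *Csrp3* by 0.58, while the cardiac troponin I gene *Tnni3* changed by -0.40 (adjusted p = 0.0196). A match to the MEF2 site, the binding site of a family of muscle transcription factors, was held by 6 of the 24 sarcomere genes with a promoter window (25%), namely *Fhl2*, *Mybpc3*, *Myoz2*, *Synpo2l*, *Ttn* and *Xirp2*, against 3.70% of all genes. Of these, *Mybpc3* changed by -0.04 and *Synpo2l* by 0.13, while *Cmya5*, *Ldb3* and *Csrp3*, which rose, held no match in these windows. Among named genes with a window, 5.71% of those called higher and 1.32% of those called lower held it. Such a match describes the sequence only.

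Ion handling genes were mixed, with 9 of 34 higher and 5 lower and a median of 0.06, which was -0.03 with median scaling. *Asph*, whose locus also encodes junctin and junctate of the calcium store, had 10.26, 10.28 and 10.12 at P14, against 9.20, 9.02 and 9.10 at P7 (1.11 ± 0.12, adjusted p = 8.71e-08). All P14 arrays were the higher ones. The two-pore potassium channel gene *Kcnk3* rose by 0.67, the calcium-binding protein gene *Hrc* by 0.60 ± 0.08 (adjusted p = 1.08e-05) and junctophilin (*Jph2*) by 0.56. *Kcne1* (-1.16), the calcium pump inhibitor phospholamban (*Pln*, -0.68 ± 0.14, adjusted p = 1.18e-03), the sodium-calcium exchanger *Slc8a1* (-0.50) and *Gja5* (-0.44), connexin 40 of atrial and conduction cells, fell. Without the first P14 array 5 of these genes were higher.

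Fetal heart genes gave 7 of 23 lower and 1 higher, with a median of -0.24. *Kcne1*, *Igf2*, *Myl9* (-0.88), *Slc2a1*, brain creatine kinase (*Ckb*, -0.56), *Tpm4* (-0.38) and *Igf2bp2* (-0.36) made up the falls. *Nppb*, which encodes the natriuretic peptide BNP and is counted as a fetal gene, went the other way. It had 12.63, 12.94 and 13.39 at P14, against 11.78, 12.07 and 10.85 at P7. The groups did not overlap although the P7 arrays differed by more than 1 log2 unit, and the change was 1.42 ± 0.30 (adjusted p = 1.21e-03). Without the third P14 array the change was 1.22 (adjusted p = 0.0136) and without the third P7 array 1.07 (adjusted p = 0.0176). In Sox6 KO ventricles *Nppb* did not show the rise, with means of 12.69 at P14 and 12.63 at P7 (0.065, limma adjusted p = 0.902). The difference between the genotypes did not pass (-1.36, limma interaction, adjusted p = 0.163).

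Immediate early genes, which are induced within minutes by stimuli and by the handling of tissue, had a median of 0.30, the highest among the functional lists. Of 21 measured, 8 were higher and 0 lower (limma; 11 and 0 at an unadjusted p under 0.05), and without the third P14 array 5 were higher. *Junb*, a subunit of the AP-1 factor, had 8.55, 8.69 and 8.64 at P14, against 7.51, 7.54 and 7.48 at P7 (1.12 ± 0.13, adjusted p = 6.09e-07). *Fos*, its partner, had 10.05, 10.69 and 10.61 at P14, against 8.99, 9.31 and 8.53 at P7 (1.5 ± 0.34, adjusted p = 1.88e-03). The *Fos* values did not overlap but scattered more, and its adjusted p was 0.0118 to 0.0166 without the second P14 array, without the third P14 array or without the third P7 array. *Zfp36* (0.93), *Egr1* (0.92, adjusted p = 0.0208), *Gadd45a* (0.87 ± 0.12, adjusted p = 1.05e-05), *Ccn1* (0.77), *Gadd45g* (0.74) and *Klf2* (0.70) also rose. How long tissue was handled before freezing is not given in the sources used here, and its part in these values was not tested.

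Genes that respond to fasting and glucocorticoids overlapped with these lists in part. Of 25 measured, 7 were higher and 3 lower, with a median of 0.27. *Klf9*, a glucocorticoid and thyroid hormone target, had 11.40, 11.69 and 11.85 at P14, against 10.74, 10.64 and 10.78 at P7 (0.93 ± 0.12, adjusted p = 1.60e-06). The insulin-regulated transcription factor *Foxo1* rose by 0.39 and the muscle ubiquitin ligase *Fbxo32* by 0.34, beside *Pdk4*, *Cebpb* and *Gadd45g*. *Eif4ebp1*, a repressor of translation (-0.81 ± 0.12, adjusted p = 1.32e-05), *Mt1*, metallothionein (-0.61), and *Cdkn1a* (-0.35) fell.

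Chaperones rose in 10 of 32 cases and fell in 0 (limma; 14 and 4 at an unadjusted p under 0.05), with a median of 0.20, but with median scaling 8 were higher and 5 lower. The small heat shock proteins of muscle led, *Hspb8* at 0.84 ± 0.14 (adjusted p = 1.04e-04) and *Hspb6* at 0.76 ± 0.10 (adjusted p = 1.83e-06), followed by the mitochondrial chaperonin *Hspe1* (0.59) and *Bag3* (0.56). Among 26 genes of iron and heme, 9 were higher and 2 lower, of which *Tfrc* was by far the largest rise and the ferritin light chain gene *Ftl1* the largest fall (-0.85 ± 0.10, adjusted p = 9.09e-07). The other 8 rises were of 0.27 to 0.34, and 2 genes of the list were higher with median scaling. Without the third P7 array the count changed by less than 1.5 times, and without any other single array 5 were higher.

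Transcription factors of the heart gave 2 of 33 higher and 7 lower, against 9.53% and 9.91% of all probes tested. Their median was -0.02, and 0.03 without the first P14 array. *Sox12* (-0.75 ± 0.09, adjusted p = 1.42e-06) and *Sox4* (-0.94), SoxC factors of progenitor cells, fell, as did the Hippo pathway coactivator *Wwtr1* (-0.79) and the ventricular factor *Irx4* (-0.53). *Ppard*, a nuclear receptor for fatty acids, rose by 0.59 ± 0.11 (adjusted p = 3.11e-04) and *Id3* by 0.48. In nucleotide synthesis 6 of 28 genes were lower, led by *Upp1* and the phosphoribosyl pyrophosphate synthetase *Prps2* (-0.99 ± 0.20, adjusted p = 6.04e-04), and 2 were higher, *Adsl* (0.45) and *Prps1* (0.36). Of the 11 clock genes 0 rose and 0 fell (limma; 1 and 0 at an unadjusted p under 0.05). The lists of the proteasome (1 of 28 higher, 2 lower), cholesterol synthesis (1 of 12 higher, 1 lower) and MHC class I (2 of 26 higher, 1 lower, among them *Gbp2* at 0.91) held few calls.

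Matrix genes moved in both directions. Of 37 genes of fibrillar collagen and matrix, 4 were higher and 5 lower, and of 14 basement membrane genes 3 were higher and 2 lower. Of all probes tested, 9.53% were higher and 9.91% lower. The counts of the fibrillar collagen and matrix list lay near these shares and do not set it apart. *Col8a1*, a short-chain collagen named only through the list of Sox6 KO genes, rose by 1.03 ± 0.10 (adjusted p = 2.50e-08), *Col15a1*, a collagen next to muscle and capillary basement membranes, by 1.10 ± 0.20 (adjusted p = 1.66e-04) and *Lamb2*, the laminin chain of mature muscle, by 0.73. *Col18a1* (-1.17), *Spon2* (-1.18), *Thbs2* (-0.59), *Mmp14* (-0.48) and fibronectin (*Fn1*, -0.45) fell. The medians of both lists, 0.01 and 0.03, were -0.10 and -0.03 with median scaling, and without the first P7 array 3 of the matrix genes were lower.

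Markers of other cell types differed in size and direction. Their counts stand against 9.53% higher and 9.91% lower among all probes tested. Of 35 endothelial markers 7 were higher and 4 lower, their median was 0.03 (-0.07 with median scaling), and their summed signal was 44265 to 46391 at P14 and 42913 to 44299 at P7. Without the third P14 array 3 of them were higher, without the second P14 array 4 were higher and 2 lower, and without the first or the third P7 array 2 were lower. The summed signal of 13 fibroblast markers was 27083 to 29857 at P14 and 26466 to 33104 at P7. Of 11 macrophage markers 3 were higher, *Csf1r* (0.52), *C1qb* (0.49) and *Lyz1* (0.47), and 0 lower (limma; 5 and 0 at an unadjusted p under 0.05), with summed signals of 6259 to 6679 at P14 and 4812 to 5919 at P7. Without the first P7 array 1 macrophage marker was higher, and without the second 5. The summed signal of 8 red blood cell markers was 116512 to 147631 at P14 and 151988 to 175548 at P7, and the 5 probes of *Hbb-b1* had changes of -1.08 to -0.47. *Hba-a1* and *Hbb-bt*, with means of 15.44 at P14, weigh much in this sum and also lie near the top of the signal range. Of 6 conduction system markers 3 were lower, *Kcne1*, *Id2* (-0.41) and *Gja5*, and 0 higher (limma; 3 and 0 at an unadjusted p under 0.05), with a median of -0.43 and summed signals of 5503 to 6579 at P14 and 8700 to 9483 at P7. *Irx3* (0.34, limma adjusted p = 0.219) and *Tbx3* (0.06, adjusted p = 0.778) had positive changes. The members of highest signal, *Kcne1* and *Nppa* (-0.55, adjusted p = 0.239), weigh most in this sum, and *Nppa* is also counted among the atrial markers. Both adipocyte markers had positive changes, of which that of *Cidea*, a lipid droplet protein, passed the test (0.80, adjusted p = 2.36e-04), and their sum was 1125 to 1341 at P14 and 741 to 837 at P7. Pericyte and smooth muscle markers gave 2 of 10 higher and 1 lower with a median of 0.21, and sums of 29092 to 30444 at P14 and 25916 to 33736 at P7. The only measured epicardial marker, *Wt1*, changed by -0.59 ± 0.13 (adjusted p = 2.17e-03). Atrial markers gave 2 of 8 lower and 0 higher (limma; 2 and 0 at an unadjusted p under 0.05), with sums of 6036 to 6712 at P14 and 7355 to 8276 at P7. No neutrophil marker was among the named probes tested, and the part of shifts in cell makeup in the changes above was not tested.

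Placed among the 5 control ages, the genes of this week followed different courses. *Rpl3l* climbed through all of them, with mean log2 signals of 8.40 (P1), 10.96 (P7), 12.74 (P14), 13.66 (P30) and 13.93 (P60). *Upp1* stood at 9.75 and 9.80 at P1 and P7 and at 8.19, 8.01 and 7.75 from P14 to P60. *Tfrc* was highest at P14, with means of 10.85, 10.94, 12.53, 10.89 and 10.12 at the 5 ages, and so was *Pdk4*, with 11.10, 11.45, 13.12, 11.16 and 11.11. *Tuba4a* had 7.45 and 7.88 at P1 and P7 and 9.38, 9.11 and 9.45 afterwards, while *H19* was lower at each later age (14.07, 12.88, 10.97, 9.09 and 8.10). *Fos* had means of 8.94, 10.45 and 7.17 from P7 to P30, and *Ptgds* had its lowest mean at P14 (10.46, 9.03, 7.77, 10.42 and 10.97 over the ages). Neighbouring comparisons share arrays with this one and are given as levels only.

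**Figure D4:**
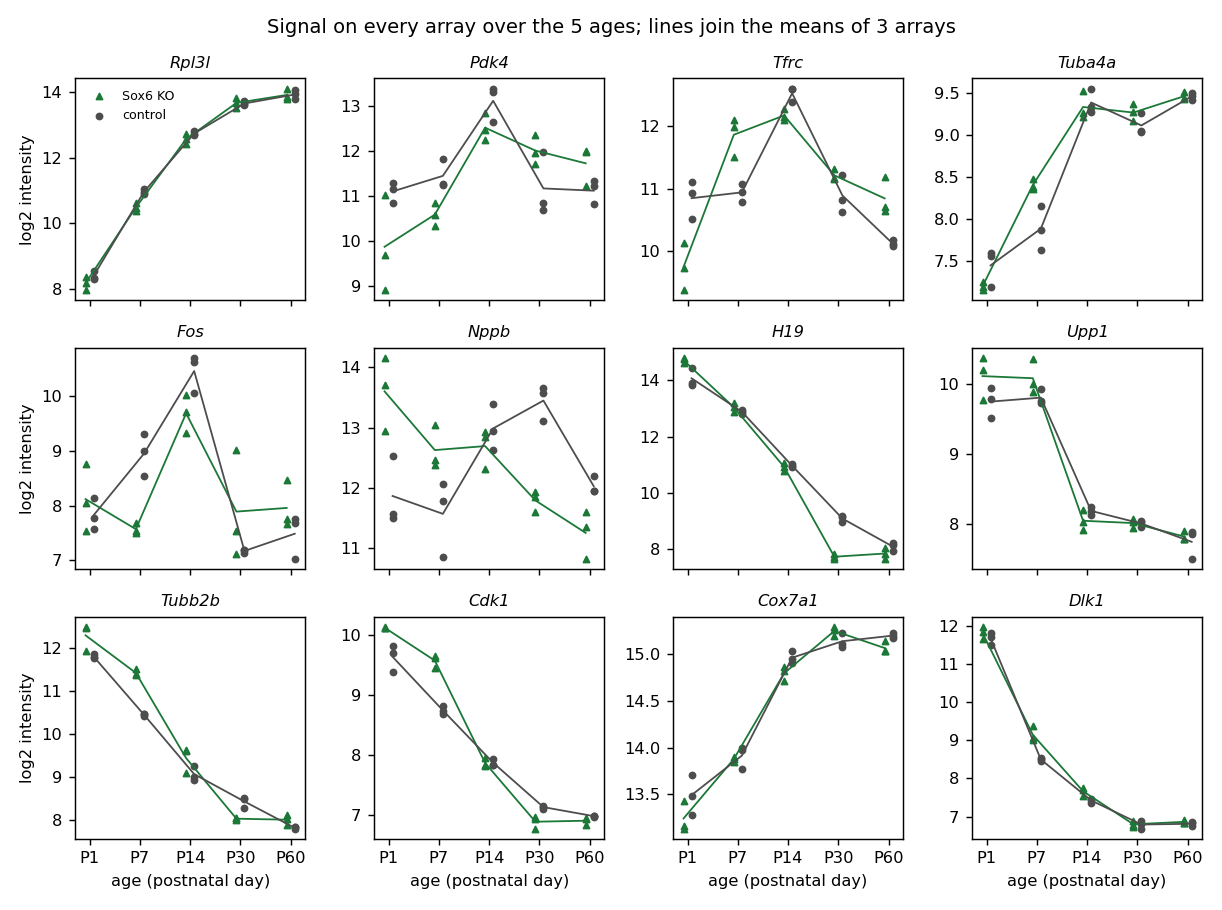
Log2 intensity of 12 genes on every array at P1, P7, P14, P30 and P60 (evenly spaced on the x axis, not to scale in days), with Sox6 KO as green triangles and control as grey circles and lines through the means of 3 arrays. Control *Tfrc*, *Pdk4* and *Fos* are highest at P14, while *Upp1* and *Tuba4a* make their main step between P7 and P14 (*Upp1* 9.80 and 8.19, *Tuba4a* 7.88 and 9.38).

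The Sox6 KO ventricles gave a comparison of the same ages on 6 arrays that share no sample with the control ones. In the KO, 992 probes (5.51%) differed between P14 and P7 by the same rule, 474 higher (2.63%) and 518 lower (2.88%). Of the 278 probes that were higher in control, 275 had a positive change and 190 were called higher in the KO, and of the 312 that were lower all 312 had a negative change and 240 were called lower. None was called in the opposite direction. How many of all probes had a positive or a negative change in the KO is not given here, so these counts of direction lack a base rate. Both comparisons also came from the same fit, with a shared variance for each probe. A probe of low variance is therefore easier to call in both, and the overlap of calls is not a fully independent repeat. The median change of the 278 was 0.73 in the KO and 0.76 in control, and that of the 312 was -0.84 in the KO and -0.74 in control. No probe is named Sox6, so the deletion was not checked on the arrays.

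The change differed between KO and control at 72 probes (0.400%; limma interaction, adjusted p under 0.01 and at least 1.5-fold), of which 29 (0.161%) had the more positive change in the KO and 43 (0.239%) the more negative. *Tfrc* had 12.10, 12.15 and 12.28 at P14 and 11.51, 12.10 and 11.99 at P7 in the KO, a change of 0.31, against 1.59 in control (difference -1.28, adjusted p = 5.50e-03). In the KO its P7 arrays were already near the P14 level. Genes of mitosis changed by a median of -1.34 in the KO and -0.70 in control, and *Cdk1* (-1.71 in the KO, -0.87 in control, adjusted p of the difference 2.70e-04) and *Prc1* (-2.10 in the KO, -0.93 in control, adjusted p = 2.75e-04) were among the 72. Names of 17 of the 25 mitosis genes come only from the study's list of genes changed in the KO on these arrays. The gap between the medians is therefore not independent of that selection. Of the 59 named probes with a difference, 35 are named only through the study's list of Sox6 KO genes. The count of 72 was 41, 46 and 40 without control P14 replicate 1, 2 or 3 and 43, 38 and 51 without control P7 replicate 1, 2 or 3.

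**Figure D5:**
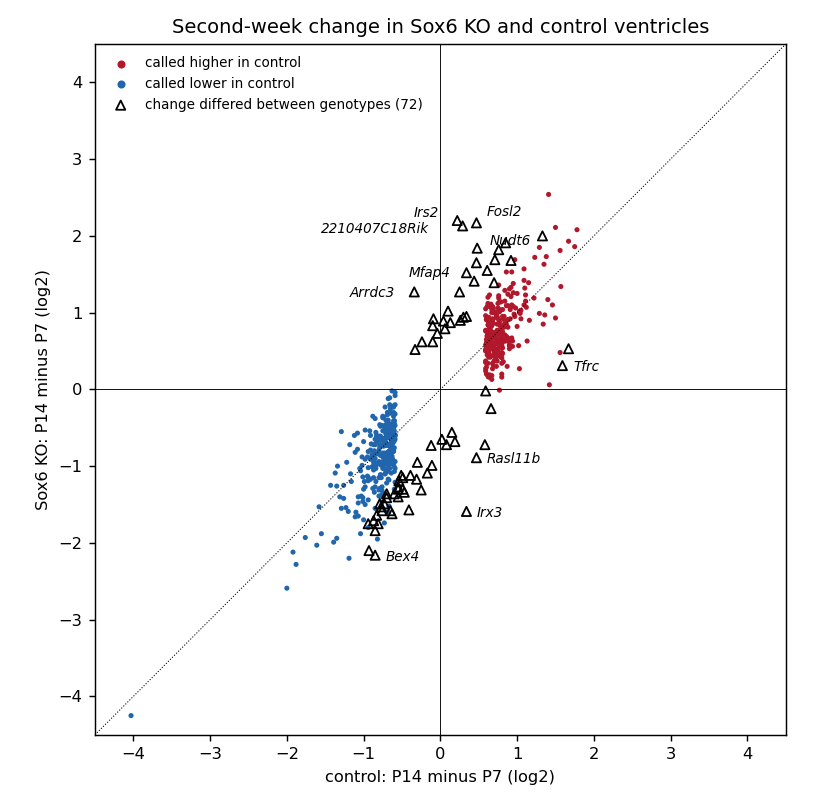
Log2 change, P14 minus P7, in Sox6 KO (y axis) against control (x axis) for the 590 probes called in control, red where higher and blue where lower, with open triangles for the 72 probes whose change differed between the genotypes and a dotted line of equal change. The called probes lie on both sides of the line of equal change, and *Tfrc* (0.31 in the KO, 1.59 in control) and *Irx3* (-1.59 in the KO, 0.34 in control) lie well off it.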

How the data were processed

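RNA of cardiac ventricle was measured on 30 Illumina MouseWG-6 v2.0 arrays, 3 for each of 10 groups. Per the methods, the authors exported the deposited intensity values from the scanner files without normalization, and a processed table of 6784 probes, filtered and quantile normalized by the authors with limma, was deposited as well. Its intensity values differed by at most 4.8e-10 (log2) from quantile normalization of the same probes. The sources used here give neither the background setting of the export nor the slide of an array. No detection p-value was filled in, so 936 control rows, read as negative controls from their IDs, set the background at their mean plus 2 SD per array. Of 45281 probes, 17997 lay above it on all 3 arrays of at least 1 group.

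Their log2 intensities were quantile normalized and fitted with limma 3.58.1 in R 4.3.3 (1 mean per group, all 30 arrays, 20 residual and 6.717 prior degrees of freedom, eBayes), a step that was tested on simulated data. Every adjusted p is two-sided and by Benjamini and Hochberg over all probes tested. Calls required an adjusted p below 0.01 with a 1.5-fold change, and list members were counted at an adjusted p under 0.05 with 1 probe per gene, that of the highest mean. Gene names come from the platform annotation (6074 probes with 1 symbol, 3 with several, updated to GRCm38.p6), and from probe and symbol columns of supplementary tables (336 probes from S2 or S5 Table, 209 from S4 Table, whose genes were selected as changed in the KO). Other columns of those tables were not used. The members and gene lists were chosen with earlier results of these data known. Named genes are the 15 with the largest change each way among called probes whose groups do not overlap, up to 6 members of a described list with the smallest adjusted p or the strongest opposite change, all members of counts of 5 or fewer, and the 10 largest differences between genotypes. Further list members were named for their size or known role after their values were seen, and some genes within the counts are not reported here. Alternatives varied the normalization, background, filter, samples in the fit, prior, array weights, replicate block, threshold and processed table, and left out each array. The number of arrays limits the precision.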

Additional observations from a re-analysis of the deposited data

Results flagged for a closer look

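The change between P7 and P14 differed between Sox6 KO and control at 72 probes by limma's interaction test. The 10 named genes with the largest differences (KO change minus control change, log2) are given as values. Among them, the probes of *Irs2*, *2210407C18Rik*, *Rasl11b* and *Bex4* are named only through the study's list of Sox6 KO genes. That list was chosen on these same arrays, so their adjusted p-values are not independent of the selection. The change was more positive in the KO for *Irs2*, an adaptor of the insulin receptor (1.97, with 2.20 in the KO and 0.22 in control, adjusted p = 3.47e-03), *2210407C18Rik* (1.85, adjusted p = 8.42e-07), the AP-1 gene *Fosl2* (1.70, adjusted p = 2.02e-03), *Arrdc3* (1.61, adjusted p = 5.13e-03), *Nudt6* (1.36, adjusted p = 3.26e-09) and the matrix gene *Mfap4* (1.17, adjusted p = 6.83e-04). It was more negative in the KO for the homeobox gene *Irx3* (-1.93, with -1.59 in the KO and 0.34 in control, adjusted p = 2.70e-04), *Rasl11b* (-1.36, adjusted p = 7.24e-03), *Bex4* (-1.31, adjusted p = 5.27e-05) and *Tfrc* (-1.28, adjusted p = 5.50e-03). The P7 arrays of KO and control overlapped for *Irs2*, *2210407C18Rik* and *Fosl2* and lay apart for *Arrdc3*, *Bex4*, *Irx3*, *Mfap4*, *Nudt6*, *Rasl11b* and *Tfrc*. At P7 *Nudt6* had 7.02, 7.01 and 7.00 in the KO and 9.09, 9.37 and 9.33 in control, and *Bex4* had 9.38, 9.04 and 9.16 in the KO and 7.72, 7.80 and 7.76 in control. The KO values of *Nudt6* lie near background, as the lowest signals detected on those arrays were 6.86 to 6.88. *Bex4* in control at P14 and *2210407C18Rik* in control at P7 were above background on only 1 of 3 arrays. The size of these differences depends in part on the background.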

How the results depend on the processing

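Of 472 alternative values of the 30 named genes, 458 kept their direction and side of the threshold, 14 lost the threshold and none changed direction. The 14 concern *Ptgds*, *Fos*, *Nppb* and *Pdk4*; *Ptgds* had an adjusted p of 0.0201 with no filter on dim probes, *Fos* 0.0267 with normexp background correction, and *Pdk4* 0.0105 without the second P14 array. The 590 calls became 1398 (672 higher, 726 lower) with normexp, 351 (173 and 178) on the authors' processed table, which holds fewer probes, 1994 (969 and 1025) with no fold threshold and 87 (40 and 47) at 2-fold, and with median scaling 484 were lower. Leaving out 1 array gave 529 to 608 calls, 252 to 282 higher and 277 to 327 lower. The 72 differences between genotypes became 21 with normexp, 113 in a fit to the 12 arrays of P7 and P14, 126 with array weights, 17 on the processed table, 122 at an adjusted p under 0.05, 20 at 2-fold and 38 to 51 without 1 control array. The cause of these shifts was not tested, apart from the number of probes or the threshold. In the processed values, 6 mitosis genes were lower. Replicate numbers did not pair the samples (correlations of deviations -0.037, -0.001 and 0.007 for the same numbers), and with the replicate block 591 probes were called, 279 higher and 312 lower, and 67 differences. The slide as a block was not run, since no slide is given. Probes near background have compressed changes without background correction.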
